A study of Rattus norvegicus with 52 samples.

Results

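The genes described here are the 3 D-type cyclins (Ccnd1, Ccnd2 and Ccnd3), the 2 E-type cyclins (Ccne1 and Ccne2) and the kinases that they activate in the G1 phase of the cell cycle (Cdk4 and Cdk6 for cyclin D, Cdk2 for cyclin E). They were taken by symbol, 8 genes of the 17356 with a count in the files, and all 8 were counted in each of 48 RNA-seq libraries of sorted rat mammary cells. D-type cyclins rise in response to growth factors and hormones and, with Cdk4 or Cdk6, begin the phosphorylation of the retinoblastoma protein. Cyclin E with Cdk2 completes it and opens the way to DNA synthesis. p27, the product of Cdkn1b, binds and inhibits cyclin E-Cdk2, and it also binds the cyclin D complexes. In the mammary gland cyclin D1 is known for its role in the alveolar growth of pregnancy.

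The study compared ACI rats, a strain prone to estrogen-induced mammary tumours, with and without Cdkn1b. Cdkn1b-/- rats (KO) carried CRISPR deletions that the study calls DEL-32 and DEL-65, made in Sprague-Dawley zygotes and backcrossed to ACI, with sorted glands from early and later backcross generations, and were compared with Cdkn1b+/+ littermates (WT). The deletions are present in every tissue, the ovary and pituitary included, so that a change within the sorted cells and a change in their surroundings cannot be told apart. All KO rats had cataracts from birth. At 9 weeks of age, 4 fractions were sorted, with 2 libraries per genotype in each: basal (Cd24+ Cd29HIGH), PNA+ and Cd49b+ luminal progenitors, and mature luminal cells that lack both markers. Both progenitor gates form 1 group here, with 4 libraries per genotype. At 4 weeks there were 3 WT and 2 KO basal and 3 WT and 3 KO luminal libraries, and at 6 weeks 3 WT and 2 KO basal and 2 WT and 2 KO luminal libraries. A further experiment compared control ACI rats and ACI rats given estradiol (E2) by implant with rats of the BN strain, which have intact Cdkn1b and resist such tumours. It used basal and luminal cells (12 libraries, with 1 BN library per treatment and cell type, each from 2 animals by its title, and with no age in the labels). By the paper's methods the implants, empty in controls, were placed at 9 weeks of age and released hormone for 3 weeks. Titles of the luminal libraries also name CD49b and PNA.

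Counts assigned to genes ran from 7985619 to 33859550 per library, so that a level of 3 counts corresponds to 0.0886 to 0.376 counts per 1000000 gene-assigned counts (CPM). The basal markers (10 genes, summed CPM) separated the basal libraries of 9 weeks (22788 to 37698) from the luminal ones (322 to 3801). The labelled mature luminal libraries, however, held 25804 to 49825 CPM of luminal progenitor markers (6 genes), against 13910 to 48197 in the libraries labelled progenitors. The list for this sum includes the milk protein gene Csn3 and Lcn2 beside Kit, and the share of each gene in it was not examined. Kit alone was 50.0 to 270 CPM in mature luminal and 53.2 to 296 CPM in progenitor libraries. Hormone-sensing markers of the mature luminal libraries (Esr1, Pgr, Foxa1 and others, 149 to 534 CPM) were no higher than in the progenitor libraries (318 to 1043). For these reasons "mature luminal" is used here as the name of a gate. Cdkn1b itself stayed countable, as small deletions leave most of the transcript: at 9 weeks it was 2.71 ± 1.01 CPM in KO and 10.4 ± 3.74 in WT (SD, n = 8 libraries each) with no overlap, at 4 weeks 4.3 to 15.2 against 15.6 to 43.9 CPM, and at 6 weeks 11.1 to 30.2 against 3.13 to 46.3 CPM, where the genotypes overlap. Of the 6-week libraries, KO luminal 2 stood apart (9241 genes detected, Pgr at 0, endothelial markers 1588 CPM against 0.303 to 229 in the other luminal libraries). In the E2 experiment, 1 ACI E2 basal library (7716 genes detected, basal markers 3086 CPM) and the BN control basal library (7677 CPM) had few counts for keratins. Their effect is given beside the results that rest on them.

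**Figure D1:**
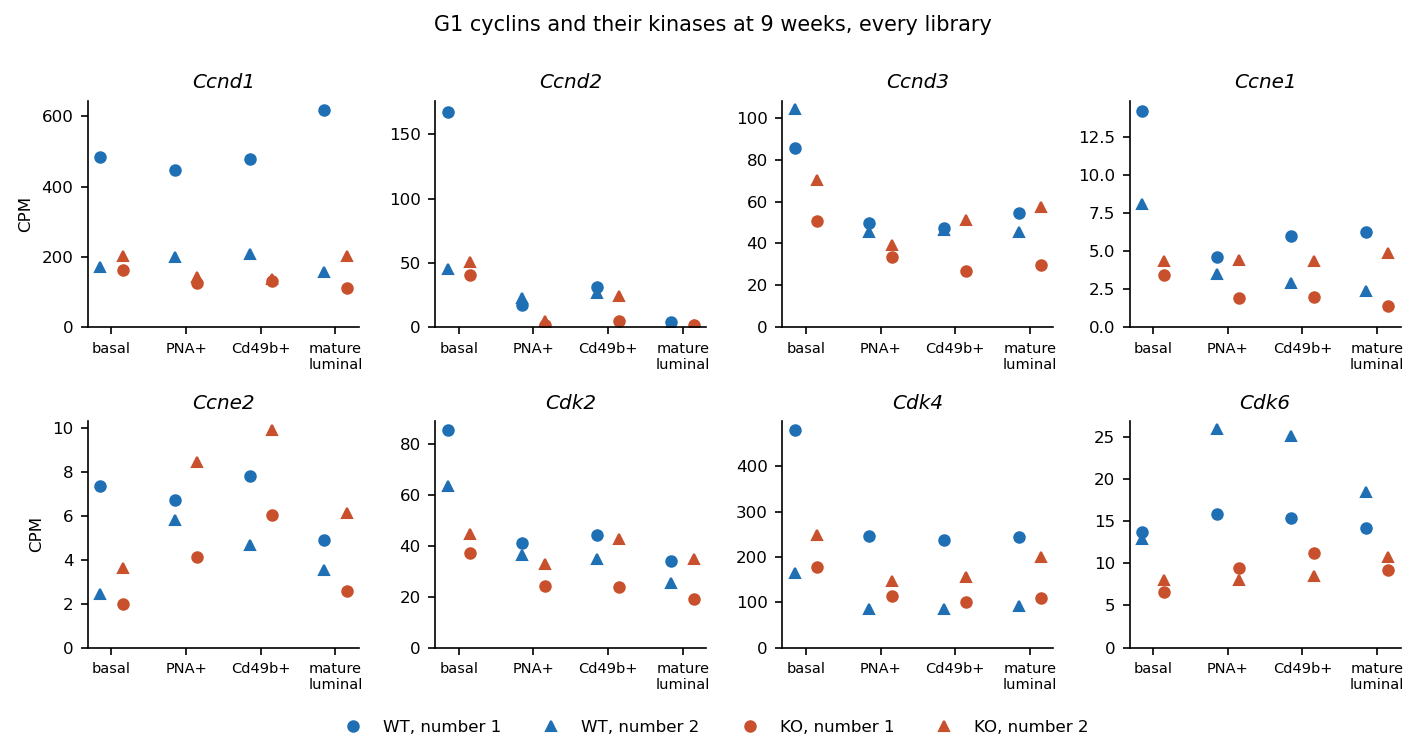
CPM of each gene (y axis, from 0) in every library of 9 weeks by sorted fraction (x axis). Blue, WT; red, KO; circles and triangles, libraries numbered 1 and 2 in the titles. Ccnd2 is highest in basal cells, every KO value of Cdk6 lies below every WT value, and WT number 1 stands above WT number 2 for Ccnd1 and Cdk4 in every fraction.

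Promoter sequences were available for 4 of the 8 genes (Ccnd3, Ccne1, Cdk2 and Cdk4). The other 4 had no entry in the promoter table, so that expression played no part in the choice. The 4 genes shown were higher in basal cells than in luminal progenitors in the results below, as was Ccnd2, which has no entry. Each sequence is the 250 bases before the start of the gene in RefSeq (build GRCr8, not the rn6 build of the counts), written 5′ to 3′ along the gene. They lie at chr9:20897876-20898125 (minus strand, Ccnd3), chr1:99927910-99928159 (minus, Ccne1), chr7:1721879-1722128 (minus, Cdk2) and chr7:64771203-64771452 (plus, Cdk4). Capitals mark every match, on either strand, to 5 motifs: the GC box GGGCGG, the box named after its letters CCAAT, the E-box with the letters CACGTG, a form of the E2F motif written TTTNNCGC, and the cyclic AMP response element, TGACGTCA.
Ccnd3: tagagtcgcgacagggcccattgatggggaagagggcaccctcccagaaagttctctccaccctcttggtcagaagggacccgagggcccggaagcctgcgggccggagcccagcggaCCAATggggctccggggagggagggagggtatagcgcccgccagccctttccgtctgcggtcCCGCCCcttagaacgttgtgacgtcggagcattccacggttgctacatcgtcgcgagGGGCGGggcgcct
Ccne1: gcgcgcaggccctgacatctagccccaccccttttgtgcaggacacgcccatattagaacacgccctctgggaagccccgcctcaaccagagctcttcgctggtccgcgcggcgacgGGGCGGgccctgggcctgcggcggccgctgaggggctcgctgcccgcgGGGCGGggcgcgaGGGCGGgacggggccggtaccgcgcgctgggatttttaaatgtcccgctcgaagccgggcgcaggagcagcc
Cdk2: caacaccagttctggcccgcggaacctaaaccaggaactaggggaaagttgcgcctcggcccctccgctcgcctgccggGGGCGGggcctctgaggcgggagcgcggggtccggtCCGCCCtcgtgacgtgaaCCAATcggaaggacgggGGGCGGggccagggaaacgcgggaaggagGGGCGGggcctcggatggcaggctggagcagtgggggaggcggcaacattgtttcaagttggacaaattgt
Cdk4: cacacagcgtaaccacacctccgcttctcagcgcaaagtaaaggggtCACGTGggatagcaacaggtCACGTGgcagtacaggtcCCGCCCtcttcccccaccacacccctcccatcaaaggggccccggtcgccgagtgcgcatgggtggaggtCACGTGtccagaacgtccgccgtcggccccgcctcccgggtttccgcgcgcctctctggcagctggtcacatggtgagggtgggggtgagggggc
All 4 stretches are rich in G and C (66.8 to 72.8%) and hold a GC box, 2 in Ccnd3, 3 in Ccne1, 4 in Cdk2 and 1 in Cdk4. Of 33469 such stretches in the table, 30.5% hold at least 1. CCAAT occurs once in Ccnd3 and once in Cdk2 (34% of all stretches hold it). CACGTG occurs 3 times in Cdk4 and in none of the other three (5.6% of all). Neither TTTNNCGC (4.1% of all) nor TGACGTCA (1.6%) is found in these windows in the letters searched. The 4 stretches thus share the GC box, which is common, and differ in the others.

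Ccnd2 was the gene with the widest range across the sorted populations. It encodes cyclin D2, a D-type cyclin that many cell types use in place of cyclin D1. At 9 weeks its level in basal cells was 168 and 45.7 CPM in the WT libraries and 40.7 and 51.1 CPM in the KO libraries. In luminal progenitors it was 17.7, 22.6, 31.1 and 26.3 CPM in WT and 1.76, 4.98, 4.70 and 24.6 CPM in KO, and in mature luminal cells 3.95, 2.88, 1.53 and 1.61 CPM. The basal libraries lie above all others, and the mature luminal libraries lie below every WT progenitor library but overlap with those of KO. Fitted over all 16 libraries with edgeR's quasi-likelihood test (p-values adjusted over 12809 genes, threshold 0.05), Ccnd2 was 27.2-fold higher in basal than in mature luminal cells (log2 fold change 4.77, SE 0.64, adjusted p = 8.2e-05). It was 5.01-fold higher in basal cells than in progenitors (2.33, SE 0.45, adjusted p = 0.00083) and 5.43-fold higher in progenitors than in mature luminal cells (2.44, SE 0.55, adjusted p = 0.0079). All 3 comparisons use the same libraries, and none of these calls was lost when any 1 library was left out.

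Markers of other cell types were present in the progenitor gates. Endothelial markers (8 genes, summed CPM) were 440 to 875 in WT and 108 to 1024 in KO progenitors against 81.1 to 116 in mature luminal cells, and the 3 KO progenitor libraries with the lowest endothelial sums (108, 221 and 265 CPM) also had the 3 lowest Ccnd2 levels of the 8. Fibroblast markers were 601 to 1559 CPM in WT and 173 to 1119 CPM in KO progenitors, which overlap with the 111 to 786 CPM of mature luminal cells. The part of these cells in the Ccnd2 level was not tested. Basal markers were measured in the same libraries. Relative to the basal library of the same genotype and number, Ccnd2 in the WT progenitors was 10.5 to 57.6% and the basal markers 1.69 to 5.61%, and in KO 4.32 to 48.1% and 1.2 to 10.1%. In 4 of 4 libraries of each genotype the share of Ccnd2 was the larger, as it was in 2 of 2 mature luminal libraries of each genotype. The 4 progenitor libraries of a genotype share 2 basal libraries as reference, so that they are not 4 independent comparisons. The part of basal cells in the Ccnd2 level was not tested either.

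**Figure D2:**
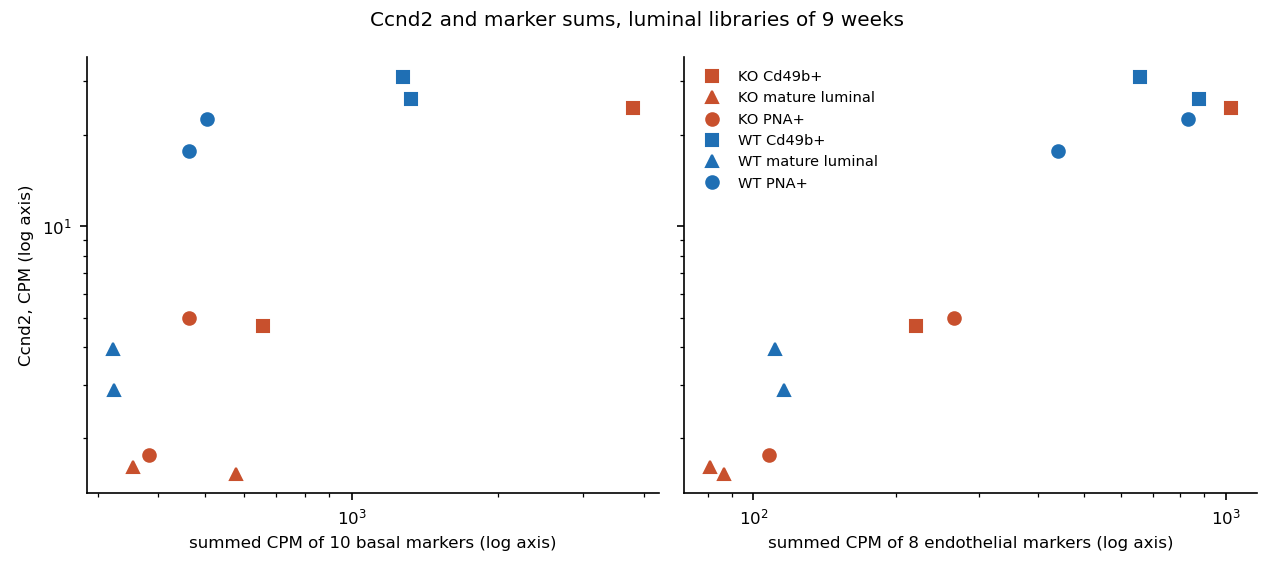
Ccnd2 (y axis, CPM, log axis) in the 12 luminal libraries of 9 weeks against the summed CPM of 10 basal markers (left) and 8 endothelial markers (right), both on log axes; colours give the genotype and symbols the gate. The mature luminal libraries, at 81.1 to 116 CPM of endothelial markers, have 1.53 to 3.95 CPM of Ccnd2, while KO Cd49b+ number 2 lies apart on the left with 3801 CPM of basal markers.

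Ccnd3, which encodes the D-type cyclin most used by blood and muscle cells, was also higher in basal cells, with less difference. Its basal levels were 85.5 and 104 CPM in WT and 50.8 and 70.2 CPM in KO. The progenitors had 49.8, 45.6, 47.4 and 46.4 CPM in WT and 33.4, 39.2, 27.02 and 51.3 CPM in KO, and the mature luminal cells had 54.5, 45.6, 29.7 and 57.2 CPM, so that KO basal number 1 overlaps with both. The log2 fold change was 0.88 against progenitors (SE 0.15, adjusted p = 0.00034) and 0.59 against mature luminal cells (SE 0.18, adjusted p = 0.02). The second of these calls was lost without KO basal number 2, KO mature luminal number 1, WT basal number 2 or WT mature luminal number 2 (adjusted p 0.0542 to 0.0771). Ccnd1 showed no such order, with 163 to 485 CPM in basal cells, 125 to 478 CPM in progenitors and 113 to 618 CPM in mature luminal cells. The log2 fold change of Ccnd1 between basal cells and progenitors was 0.22 (SE 0.34, adjusted p = 0.61) and between basal and mature luminal cells -0.12 (SE 0.40, adjusted p = 0.83).

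The 2 E-type cyclins had opposite orders. Ccne1 was 14.2 and 8.11 CPM in the WT basal libraries and 3.42 and 4.37 CPM in those of KO, against 1.94 to 6.01 CPM (median 3.93) in progenitors. Ccne2 was 7.35 and 2.42 CPM in WT and 1.98 and 3.63 CPM in KO basal libraries, against 4.13 to 9.93 CPM (median 6.37) in progenitors. For both genes the populations overlap. Ccne1 was higher in basal cells (log2 fold change 0.88, SE 0.33, adjusted p = 0.040) and Ccne2 lower (-0.82, SE 0.31, adjusted p = 0.041). The call for Ccne1 was lost without any 1 library except KO PNA+ 2, KO Cd49b+ 2, WT Cd49b+ 1 and WT basal 2 (adjusted p 0.0513 to 0.156), and that for Ccne2 without any 1 except KO basal 2, KO PNA+ 1, WT basal 1 and WT Cd49b+ 2 (0.0511 to 0.172). Neither gene passed the test between basal and mature luminal cells, at 0.75 for Ccne1 (SE 0.40, adjusted p = 0.15) and -0.33 for Ccne2 (SE 0.35, adjusted p = 0.48).

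Among the kinases, Cdk2 differed most firmly. Its basal levels were 85.6 and 63.4 CPM in WT and 37.1 and 44.8 CPM in KO, its progenitor levels 23.7 to 44.3 CPM, and its mature luminal levels 33.9, 25.4, 19.1 and 34.8 CPM. Basal cells lie above mature luminal cells without overlap and overlap with the progenitors through KO basal number 1. The log2 fold changes of basal cells were 0.85 against mature luminal cells (SE 0.17, adjusted p = 0.0017) and 0.70 against progenitors (SE 0.15, adjusted p = 0.0013), and no single library decided either call. Cdk4 reached 480 and 165 CPM in WT and 178 and 248 CPM in KO basal libraries, against 84.7 to 245 CPM in progenitors, and was higher in basal cells (0.87, SE 0.34, adjusted p = 0.048). That call was kept only without WT basal 2, WT Cd49b+ 1 or WT PNA+ 1, and without WT basal 1 the difference was 0.44 (adjusted p = 0.35). Cdk6, the other partner of cyclin D, ran the other way, at 6.57 to 13.7 CPM in basal cells and 8.06 to 25.9 CPM in progenitors (-0.48, SE 0.21, adjusted p = 0.072).

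Counted together, 3 of the 8 genes (37.5%) passed the test between basal and mature luminal cells, all higher in basal cells, where 38.7% of all genes did. Between basal cells and progenitors it was 6 of 8 (5 higher, 1 lower in basal cells), with 50% of all genes called and 3 to 6 of the 8 when 1 library was left out. Between progenitors and mature luminal cells it was 1 of 8 (Ccnd2), with 23.4% of all genes called. The members' median log2 fold changes were 0.59, 0.79 and -0.09 in these comparisons, against -0.04, 0.06 and -0.07 over all genes. The share of members called was near that of all genes between basal and mature luminal cells, above it between basal cells and progenitors and below it between progenitors and mature luminal cells, with 1 to 6 genes called.

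Libraries that share a genotype and a title number deviated together from their group means (correlations of 0.342 to 0.935 over 12 pairs), and with this pairing as a block in the fit more of the genes passed. Between basal and mature luminal cells 6 of 8 were called (54.1% of all genes), with Ccne1 (log2 fold change 0.86, SE 0.21, adjusted p = 0.0043), Cdk4 (0.57, SE 0.10, adjusted p = 0.00054) and Cdk6 (-0.49, SE 0.17, adjusted p = 0.029) added. Between progenitors and mature luminal cells 4 were called (45.8% of all), with lower Ccnd3 (-0.28, SE 0.11, adjusted p = 0.046) and Cdk4 (-0.30, SE 0.09, adjusted p = 0.018) and higher Ccne2 (0.50, SE 0.18, adjusted p = 0.042) in progenitors. Between basal cells and progenitors 7 were called (63.2% of all), Cdk6 being added (-0.43, SE 0.15, adjusted p = 0.024). These are averages over the 4 numbered sets: in KO number 2, Ccne1 was 4.37 CPM in basal and 4.89 CPM in mature luminal cells.

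The 2 progenitor gates were much alike for these genes. Without the block, 0 of 8 passed between PNA+ and Cd49b+ cells by edgeR or DESeq2, 1 (Ccnd2) had an unadjusted p under 0.05, and 0% of 11725 genes were called (419 at an unadjusted p under 0.05, 40 by DESeq2). With the block, Ccnd2 was lower in PNA+ cells (log2 fold change -1.13, SE 0.17, adjusted p = 0.046, 1.58% of all genes called), with 17.7 and 22.6 against 31.1 and 26.3 CPM in WT and 1.76 and 4.98 against 4.70 and 24.6 CPM in KO, that is, lower in 4 of 4 numbered pairs. Basal markers were also lower in the PNA+ libraries of all 4 pairs (462 and 504 against 1279 and 1328 CPM in WT, 383 and 463 against 658 and 3801 CPM in KO), as were endothelial markers (440 and 832 against 657 and 875 CPM in WT, 108 and 265 against 221 and 1024 CPM in KO), and the part of either in the difference was not tested. For the other 7 genes the log2 fold changes lay between -0.07 and 0.12.

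The difference in Ccnd2 between basal and luminal cells recurred in the younger rats. At 4 weeks the basal libraries held 143, 112 and 80.5 CPM in WT and 79.6 and 68.9 CPM in KO, and the luminal libraries 0.545, 0.843 and 0.738 CPM in WT and 1.25, 0.761 and 1.29 CPM in KO, with 11 to 19 counts each. Basal cells thus had 108-fold more Ccnd2 (log2 fold change 6.76, SE 0.30, adjusted p = 2.3e-08). At 6 weeks the basal libraries held 49.3, 57.6 and 32.1 CPM in WT and 84.3 and 61.0 CPM in KO, and the luminal ones 0 and 0.609 CPM (0 and 8 counts) in WT and 3.93 and 0.108 CPM (49 counts and 1 count) in KO. The log2 fold change was 6.20 (SE 1.12, adjusted p = 0.013), a value fitted on few luminal counts that ran from 5.74 to 8.69 when 1 library was left out. Neither call was lost in this way, KO luminal 2 of 6 weeks included. As a share of the basal library of the same animal, luminal Ccnd2 at 4 weeks (0.38 to 0.916% in WT) was below the share of the summed basal markers (0.916 to 1.26%) in 3 of 3 WT animals, and above it in 1 of 2 KO animals (0.956 and 1.88% against 0.993 and 0.779%). At 6 weeks it was below in 2 of 2 WT animals and above in 1 of 2 KO animals. The part of basal cells in these luminal levels was not tested.

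**Figure D3:**
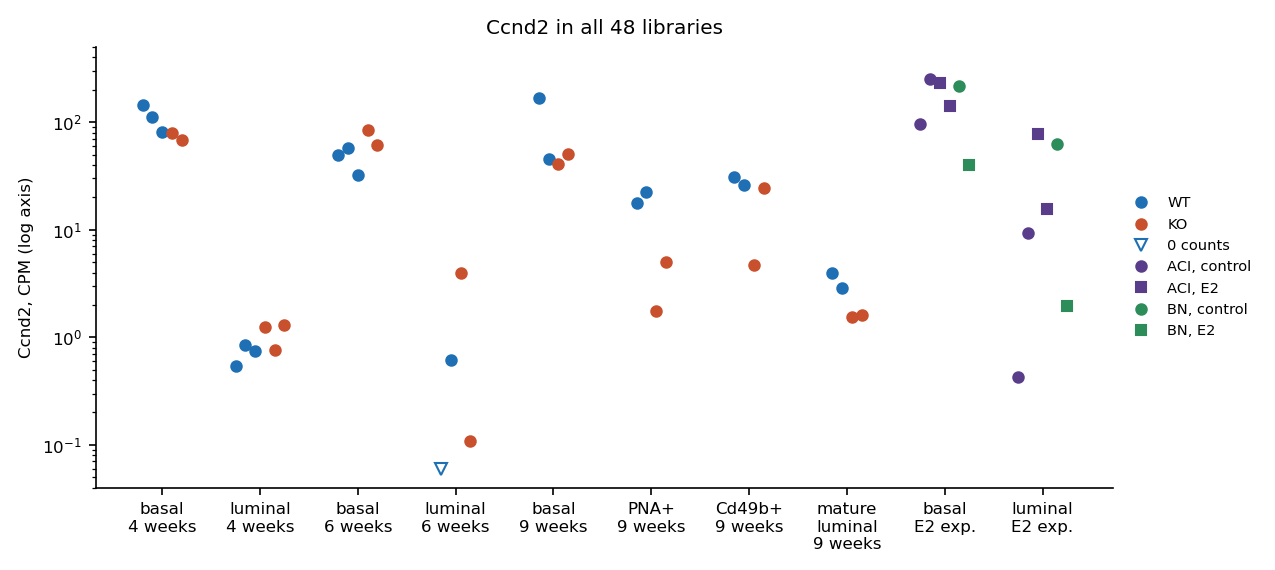
Ccnd2 (y axis, CPM, log axis) in all 48 libraries by age, experiment and sorted population (x axis). Points are libraries, coloured by genotype or strain; squares, E2-treated; the open triangle marks a library with 0 counts. Basal libraries lie between 32.1 and 252 CPM in every set, and luminal libraries between 0 and 78.1 CPM.

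Of the other genes, Ccnd3 at 4 weeks was 58.2 to 111 CPM in basal and 17.3 to 47.3 CPM in luminal cells, without overlap (log2 fold change 1.34, SE 0.26, adjusted p = 0.0011). Ccne1 was 62.5 to 81.3 CPM in basal and 27.9 to 51.2 CPM in luminal cells, also without overlap (0.99, SE 0.22, adjusted p = 0.0030). Cdk6 was lower in basal cells, with 8.46 to 18.4 against 12.7 to 28.3 CPM (-0.88, SE 0.32, adjusted p = 0.046), a call that was kept only without WT basal 1, KO basal 1 or KO luminal 2 (adjusted p 0.0527 to 0.134 without each of the others). These make 4 of 8 genes called, 3 higher and 1 lower in basal cells, with 35.1% of all 12082 genes called. With the animal as a block Ccne2 was added, lower in basal cells (-0.71, SE 0.23, adjusted p = 0.026, 43% of all called). At 6 weeks 1 of 8 passed (Ccnd2), with 5.65% of all genes called. Ccnd3 had a log2 fold change of 1.10 there (SE 0.42, adjusted p = 0.17) and Ccne1 of 0.67 (SE 0.54, adjusted p = 0.54).

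In the E2 experiment Ccnd2 was 40.0 to 252 CPM in the 6 basal libraries (median 180) and 0.43, 9.41, 78.1, 15.5, 62.7 and 1.94 CPM in the luminal ones, which overlap with the basal range. The log2 fold change was 2.65 (SE 1.06, adjusted p = 0.24, range 2.17 to 3.82 without 1 library), or 3.72 with the animal as a block (SE 0.81, adjusted p = 0.061). No gene of the 8 passed there by edgeR (1 at an unadjusted p under 0.05, 1 by DESeq2), with 1.98% of all genes called. The luminal libraries with 78.1 and 62.7 CPM also had the most fibroblast (6796 CPM) and the most basal markers (2097 CPM) of the luminal set, respectively, and the part of these cells was not tested. Without the 2 basal libraries poor in keratins, an alternative chosen after the data were seen, 0 of 8 were called again. Ccnd2 was thus higher in basal cells in all 4 data sets by the fitted value, and past the threshold in 3. The basal libraries held fibroblast markers too (summed CPM). At 4 weeks these were 1248 to 7993 CPM in basal and 37.5 to 431 CPM in luminal cells, without overlap. They were 71.5 to 3348 against 16.8 to 3191 CPM at 6 weeks and 633 to 16824 against 50.0 to 6796 CPM in the E2 experiment. In basal cells of 9 weeks they were 626 to 3021 CPM. The part of such cells in basal Ccnd2 was not tested.

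**Figure D4:**
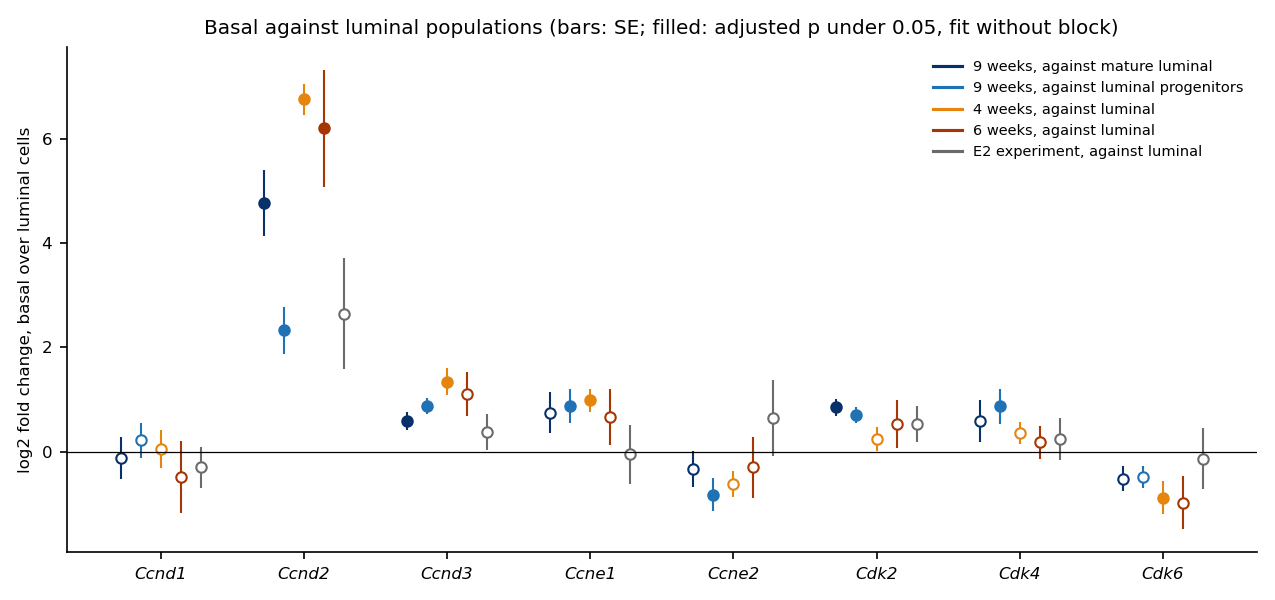
Fitted log2 fold change, basal over luminal cells (y axis), of each gene (x axis) in 5 comparisons (colours). Bars are SE, filled points have an adjusted p under 0.05 in the fit without block, open points do not. Ccnd2 lies between 2.33 and 6.76, and Ccnd3 and Cdk2 are above 0 in all 5.

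Between genotypes no gene of the 8 passed the test in any population at 9 weeks. In luminal progenitors 0 of 8 were called by edgeR, 3 had an unadjusted p under 0.05 and 1 (Cdk6) was called by DESeq2, with 3.4% of all 12809 genes called by edgeR. In basal cells it was 0 of 8 (2 at an unadjusted p under 0.05, 0 by DESeq2) with 0.0546% of all genes, and in mature luminal cells 0 of 8 (0 at an unadjusted p under 0.05, 0 by DESeq2) with 0.133%. The median log2 fold change of the 8 genes, KO over WT, was -0.10 in progenitors, -0.59 in basal and -0.21 in mature luminal cells, against 0.03, 0 and 0.03 over all genes. In basal cells 8 of 8 fitted values were negative, all from the same 4 libraries. For 4 of the genes (Ccnd1, Ccnd2, Ccne2 and Cdk4) the genotypes overlap there on CPM. The KO libraries of these 4 lie on both sides of WT basal 2 or, for Cdk4, above it.

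Cdk6 came nearest to the threshold. At 9 weeks its CPM in KO were 6.57 and 8.00 in basal cells, 9.40, 8.06, 11.3 and 8.51 in progenitors, and 9.19 and 10.8 in mature luminal cells. In WT they were 13.7 and 12.9, then 15.9, 25.9, 15.3 and 25.1, then 14.2 and 18.5. Every KO library lies below every WT library on this scale, a pattern that 0.492% of all genes tested share. After TMM scaling, which adjusts for differences in composition between libraries, the ranges were 7.15 to 12.7 in KO and 11.9 to 22.8 in WT, which overlap (0.101% of genes have every KO below every WT library on that scale). The libraries of 1 genotype came in only 2 numbered sets, so that the 16 libraries are not 16 independent samples. In progenitors the log2 fold change was -0.82 (SE 0.24, adjusted p = 0.082, 0.0217 by DESeq2, 0.696 with the PNA+ and Cd49b+ libraries of a number summed, and 0.0146 with a block of numbers crossed between genotypes that was chosen after the data were seen), in basal cells -0.62 (SE 0.34, adjusted p = 0.62) and in mature luminal cells -0.56 (SE 0.34, adjusted p = 0.85). The genotype effect of Cdk6 in progenitors differed from that in basal cells by -0.20 (SE 0.41, adjusted p = 0.96) and from that in mature luminal cells by -0.26 (SE 0.41, adjusted p = 1). No gene of the 8 passed either test of such a difference by edgeR or DESeq2 (0 at an unadjusted p under 0.05 in both), and of all genes 0% did in both (926 and 224 at an unadjusted p under 0.05, 82 and 0 by DESeq2). The hormone-sensing markers fell on the same side as Cdk6 in the progenitor gates (318 to 541 CPM in KO, 640 to 1043 CPM in WT), and whether the mix of luminal cells bears on Cdk6 was not tested.

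**Figure D5:**
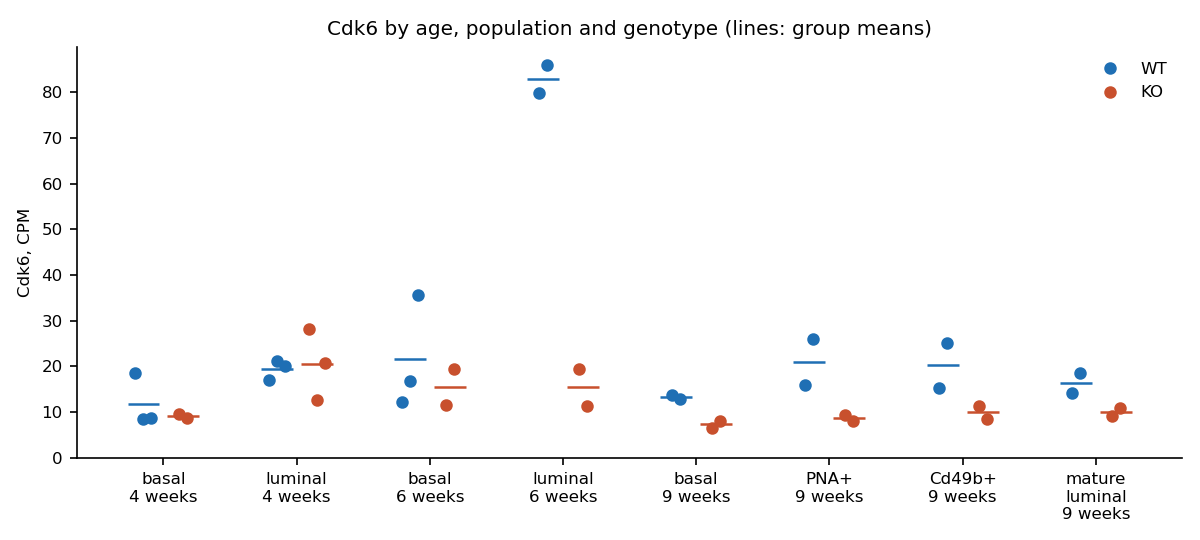
Cdk6 (y axis, CPM, from 0) by age and sorted population (x axis). Blue points, WT libraries; red points, KO libraries; lines, group means. The KO libraries lie below those of WT in all 4 fractions of 9 weeks, and the 2 WT luminal libraries of 6 weeks lie at 79.9 and 86.0 CPM.

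Ccnd1, the D-type cyclin best known in the mammary epithelium, was lower in every KO progenitor library (125, 144, 133 and 138 CPM) than in every WT one (448, 198, 478 and 207 CPM). With Cdk6 it was 1 of 2 genes of the 8 without overlap there, where 14.7% of all genes have every KO below every WT library (5.74% after TMM scaling, where the 2 genes still do not overlap). The difference did not pass (log2 fold change -0.98, SE 0.40, adjusted p = 0.22). The spread came from WT, in which number 1 had 448 to 618 CPM over the 4 fractions and number 2 had 158 to 207 CPM. Cdk4 split the same way, with 236 to 480 CPM in number 1 and 84.7 to 165 CPM in number 2 of WT. The G2 and M phase genes (15 genes, summed CPM) did too, at 47.5 to 209 CPM in number 1 and 20.6 to 37.8 CPM in number 2. Against WT number 2 alone the KO values of Ccnd1 are thus closer (113 to 203 CPM over all fractions) and those of Cdk4 are higher (102 to 248 CPM).

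Ccnd2 in progenitors was 1.76 to 24.6 CPM in KO and 17.7 to 31.1 CPM in WT (log2 fold change -1.28, SE 0.55, adjusted p = 0.24). The highest KO library, Cd49b+ number 2 at 24.6 CPM, decided this. Without it the log2 fold change was -2.29 (adjusted p = 0.0070), which passes the threshold. That fit counts the PNA+ and Cd49b+ libraries of a number as separate samples, though they deviated together (correlations of 0.935 in WT and 0.694 in KO). The 3 KO libraries left came from only 2 numbered sets. The same library had 3801 CPM of basal markers (383 to 1328 CPM in the other progenitor libraries) and 1024 CPM of endothelial markers, while the other 3 KO libraries had 108, 265 and 221 CPM of the latter against 440 to 875 CPM in WT. The part of these cells in the difference between genotypes was not tested, and in such sorted bulk samples fewer cells of a type and less RNA per cell cannot be told apart.

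In basal cells of 9 weeks 4 genes had both KO libraries below both WT libraries, a pattern that 30.7% of all genes share (16.9% after TMM scaling). They were Ccnd3 (50.8 and 70.2 against 85.5 and 104 CPM), Ccne1 (3.42 and 4.37 against 14.2 and 8.11 CPM), Cdk2 (37.1 and 44.8 against 85.6 and 63.4 CPM) and Cdk6. After TMM scaling Ccnd3 overlapped and the other 3 did not. The fitted log2 fold changes of Ccne1 (-1.26, SE 0.56, adjusted p = 0.53) and Cdk2 (-0.61, SE 0.24, adjusted p = 0.46) had an unadjusted p under 0.05. In mature luminal cells 2 genes, Ccnd2 and Cdk6, had both KO below both WT libraries (20.4% of all genes, 13.9% after TMM scaling, where both genes still do not overlap). Ccnd1 had the largest fitted value there (-1.12, SE 0.57, adjusted p = 0.755), with overlapping ranges of 113 and 203 against 618 and 158 CPM.

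At 4 weeks no genotype difference passed the test. By edgeR 0 of 8 passed in basal and 0 of 8 in luminal cells (0 at an unadjusted p under 0.05 and 0 by DESeq2 in both), and of all genes 0% were called in each (310 and 435 at an unadjusted p under 0.05, 1 and 0 by DESeq2). Median log2 fold changes of the 8 genes were -0.02 and -0.06, against 0.02 and -0.1 over all genes. In basal cells 2 of the 8, Ccnd2 and Ccne1, had every KO below every WT library on CPM (6.39% of all genes). The fit, with TMM scaling, gave them log2 fold changes of -0.39 (SE 0.36) and -0.01 (SE 0.32). KO basal 1 had a TMM factor of 0.78, against 1.023 to 1.045 in the WT basal libraries. At 6 weeks 0 of 8 passed in basal cells (0 at an unadjusted p under 0.05, 0 by DESeq2) and 0 of 8 in luminal cells (1 and 1), with 0% of all genes called in each (1072 and 1961 at an unadjusted p under 0.05, 330 and 1332 by DESeq2). The median was 0.43 in basal and 0.37 in luminal cells, with 6 of 8 values positive in each, against 0.08 and -0.01 over all genes, where at 9 weeks the medians were negative. A difference between the ages was not tested. On CPM, every KO library lay above every WT library for 3 genes in basal cells (Ccnd2, Cdk2 and Cdk4, with 29.4% of all genes) and for 2 in luminal cells (Ccnd1 and Cdk4, with 23.3%). At 4 and 6 weeks the overlap after TMM scaling was not examined. The fit, with TMM scaling, gave 0.52 (SE 1.14), 0.66 (SE 0.6) and 0.79 (SE 0.41) in basal cells. In luminal cells it gave 1.9 (SE 1.06) and 0.91 (SE 0.46). The 1 gene with an unadjusted p under 0.05 in luminal cells was again Cdk6, at 79.9 and 86.0 CPM in WT luminal cells and 19.5 and 11.3 CPM in KO, without overlap (24.9% of all genes have every KO below every WT library there; log2 fold change -2.39, SE 0.78, adjusted p = 0.20, and 0.0214 by DESeq2). Without KO luminal 2, the library that stands apart, the value was -2.26, and without any 1 of the 4 libraries it lay between -2.52 and -2.26. The 1 KO library left in the former fit is from the animal with the lower title number, while both WT luminal animals carry the higher one. If these numbers are ages in weeks, age and genotype cannot be told apart in that fit. Cdk6 in WT luminal cells was 16.9, 21.1 and 20.0 CPM at 4 weeks, and in KO 28.3, 12.7 and 20.6 CPM. The genotypes thus overlapped at 4 weeks.

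Between 4 and 6 weeks Ccne1 fell in WT basal cells, from 81.3, 70.1 and 72.1 CPM to 42.6, 20.6 and 15.7 CPM (log2 fold change -1.37, SE 0.42, adjusted p = 0.043). This call was kept only without 6-week WT basal 1 (adjusted p 0.0658 to 0.121 without each of the others), and it was lost with no filter on low counts (adjusted p = 0.051) and with the compared libraries fitted alone (0.0703). It was 1 of 8 genes called (0 without the 6-week library WT basal 2 or any 1 of the 3 WT basal libraries of 4 weeks), with 10.5% of all 12572 genes called. Cdk4 went from 217, 236 and 173 CPM to 95.8, 88.6 and 106 CPM without overlap (-0.94, SE 0.33, adjusted p = 0.070). In WT luminal cells 0 of 8 passed by edgeR (3 at an unadjusted p under 0.05, 3 by DESeq2), with 3.1% of all genes called. Those 3 were Ccne1, with 51.2, 36.3 and 35.3 CPM at 4 weeks and 14.4 and 16.5 CPM at 6 weeks (-1.42, SE 0.48, adjusted p = 0.11), Cdk4 (-1.02, SE 0.37, adjusted p = 0.13) and Cdk6, which was higher at 6 weeks (2.12, SE 0.59, adjusted p = 0.057). The median of the 8 genes was -0.88 in basal and -0.97 in luminal cells, against 0 and -0.13 over all genes. Basal markers also differed between the ages in WT basal cells (17258 to 19385 CPM at 4 weeks, 6666 to 9633 CPM at 6 weeks), and whether the ages were sequenced apart is not given, so that age and batch cannot be told apart. The 9-week libraries were not tested against them. Side by side, Ccne1 was 27.9 to 81.3 CPM at 4 weeks, 13.8 to 42.6 CPM at 6 weeks and 1.37 to 14.2 CPM at 9 weeks.

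E2 treatment and strain gave no call among these genes. Cyclin D1 is a known target of the estrogen receptor, and in luminal cells Ccnd1 was 306 and 417 CPM in ACI controls, 144 and 373 CPM in E2-treated ACI rats, 208 CPM in the BN control library and 221 CPM in the BN E2 library. The arms overlap, and the log2 fold change of E2 was -0.41 (SE 0.52, adjusted p = 1). In basal cells it was 147 and 244, 279 and 189, 396 and 104 CPM in the same order (-0.53, SE 0.62, adjusted p = 1), and the value was -0.98 without the keratin-poor ACI E2 library and 0.18 without the BN control library. By edgeR, 0 of 8 passed for E2 in luminal and in basal cells and for ACI against BN in both (0 at an unadjusted p under 0.05 and 0 by DESeq2 in each). Of all genes 0% were called in each of the 4 comparisons, with 434, 200, 527 and 89 at an unadjusted p under 0.05 and 85, 73, 312 and 8 by DESeq2 in that order. Without either of these basal libraries, 0 of 8 passed in both basal comparisons, and the strain difference of Ccnd1, -0.25, became -0.46 and 1.13. The largest fitted difference between strains was that of Ccnd2 in luminal cells (-2.10, SE 2.70), whose SE exceeds it. The SE of the E2 effect in luminal cells was 2.56 for Ccnd2 and 2.09 for Ccne2 on the log2 scale, so that large changes of these genes were not detectable.

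Of 51 further genes of this pathway listed (CDK inhibitors, the retinoblastoma family, E2F factors, ubiquitin ligase parts, later cyclins and replication genes), 45 had counts at 9 weeks. Between basal and mature luminal cells 10 passed, 7 higher and 3 lower in basal cells. The CDK inhibitor Cdkn1c (log2 fold change 2.45, SE 0.42), the S phase enzyme Tk1 (2.29, SE 0.70) and cyclin A2 (Ccna2, 2.14, SE 0.61) were highest, and Rb1 (-1.70, SE 0.61), the target of the cyclin D kinases, Wee1 (-0.87, SE 0.30) and Fbxo4 (-0.56, SE 0.21) were lower. Between basal cells and progenitors 16 passed, 11 higher (Cdkn2a 3.19, Cdkn1c 2.09, Cdk1 1.43) and 5 lower (Rb1 -1.94, Wee1 -1.36, Cul1 -0.95). Between progenitors and mature luminal cells 3 passed (Cul3 0.80 and Cul1 0.73 higher, Fbxo31 -0.64 lower in progenitors). The shares were 22.2, 35.6 and 6.7%, below those of all genes in each comparison. Between genotypes 1 passed, Cdkn1b itself in progenitors (-1.95, SE 0.26, adjusted p = 0.0021).

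The same inhibitor, Cdkn1c (p57), was higher in basal than luminal cells at 4 weeks (3.93, SE 0.30), at 6 weeks (1.86, SE 0.38) and in the E2 experiment (2.59, SE 0.38), and was the 1 listed gene called in each of the last-named sets (2.3% of the list in both, against 5.65 and 1.98% of all genes). At 4 weeks 9 of 44 genes passed (20.5%, against 35.1% of all genes), 6 higher (with Ccna2 1.48 and Cdkn2c 1.21) and 3 lower (Rb1 -1.73, Wee1 -1.36, Tk1 -1.28) in basal cells. Lower Rb1 and Wee1 in basal cells were thus common to 4 and 9 weeks, and Tk1 had opposite signs at the 2 ages. From 4 to 6 weeks 3 genes fell in WT basal cells (Rrm2 -2.78, Mcm4 -2.04, Cdkn1c -1.63) and 2 in WT luminal cells (Mcm4 -3.64, Mcm6 -2.78), that is, 6.8 and 4.5% of the list against 10.5 and 3.1% of all genes. 

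Across the 16 libraries of 9 weeks the level of Ccnd2 (log2 CPM) was most like those of Ptn (Pearson r = 0.99) and Fam198b (0.979) among 8793 genes with a mean log2 CPM above 2. The closest genes for the others were Kars and Dhx37 for Ccnd1 (0.917 and 0.916), Usp21 and Npepl1 for Ccnd3 (0.957 and 0.946), Tchp and Tcof1 for Ccne1 (0.93 and 0.929), Rwdd4 and Crnkl1 for Ccne2 (0.916 and 0.885), Hibadh and Glud1 for Cdk2 (0.967 and 0.962), Fars2 and Psmc3ip for Cdk4 (0.98 and 0.976) and Gp2 and Cds1 for Cdk6 (0.897 and 0.888). Among the 8 genes themselves Ccne1 was nearest to its kinase Cdk2 (0.891), followed by Ccnd3 with Cdk2 (0.83), and the 2 kinases of cyclin D were the least alike (Cdk4 with Cdk6, -0.576). These values are descriptions over libraries that share 4 fractions and 4 numbered sets, and carry no test.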

How the data were processed

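RNA from sorted rat mammary cells was amplified with a SMARTer low-input kit and sequenced by the authors as single-end reads. Per the labels, reads were aligned to rn6 with STAR 2.5.1b and counted per refGene gene with HTSeq, and the deposited values are raw counts per gene in 48 files, 1 for each library. Rows that name no gene (47.1 to 77% of reads) were left out of library totals. Progesterone receptor ChIP-seq peaks of the same series were not used here.

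Groups came from the labels. Levels are counts per 1000000 gene-assigned counts (CPM). Differences were tested with edgeR 4.0.16 (R 4.3.3; TMM normalization, filterByExpr, quasi-likelihood test, Benjamini-Hochberg adjustment over all genes tested, threshold 0.05), in 1 fit per age or experiment. The fits were tested on simulated data with independent libraries and planted changes. That checked the code and not the error rates in these data, where libraries of a title number deviate together. Nothing in the labels says that libraries of a group at 9 weeks came from separate animals, so p-values measure the spread between these samples. No pair of same-group libraries agreed within sampling noise (28 pairs).

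The 8 genes are named in every comparison. From the pathway list, the called genes with the largest log2 fold changes are named, at most 3 higher and 3 lower in a comparison, and for likeness the 2 genes with the highest correlation. Members and lists were chosen with earlier results of these data known. At 9 weeks the numbers in the titles pair libraries of 1 genotype (correlations of deviations 0.342 to 0.935 over 12 pairs), and at 4 weeks (0.238 to 0.839, 5 pairs) and in the E2 experiment (0.134 to 0.226, 4 pairs) titles name the animal, as at 6 weeks (-0.002 to 0.073, 4 pairs). Where both groups hold 2 libraries, deviations mirror each other, so that both pairs give the same correlation and count as 1 value. This holds for all pairs of the E2 experiment and for the KO pairs of 6 weeks. Alternatives were RLE normalization, no filter, DESeq2 1.42.0, the compared libraries alone, the replicate block and leaving out each library. A block with numbers crossed between genotypes and a fit without 2 basal libraries poor in keratins were added after the data were seen. Promoters came from RefSeq (GRCr8), with a match for 4 of 8 genes. Counting intervals and the floor of 3 counts cover counting error only.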

Additional observations from a re-analysis of the deposited data

Results flagged for a closer look

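Ccnd2 in KO luminal progenitors had 1 library far from the other 3 of its group, Cd49b+ number 2 at 24.6 CPM against 1.76 to 4.98 CPM (gap to the next library over the range of the group, 0.859, above Dixon's limit for 4 samples). In all, 16 groups of 4 were examined, and chance alone marks about 1 in 20. This library also had 3801 CPM of basal and 1024 CPM of endothelial markers, and their part in the value was not tested.

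Genotype effects ran in opposite directions in some strata, with every KO library on one side of every WT library in each, on CPM before TMM scaling. At 4 and 6 weeks the overlap after TMM scaling was not examined. Differences between strata were not tested, and the pattern is common with so few libraries. Of all genes, every KO library lay below every WT library in 14.7% (luminal progenitors), 30.7% (basal) and 20.4% (mature luminal) at 9 weeks and in 6.39% in basal cells of 4 weeks, and above it in 29.4% in basal and 23.3% in luminal cells of 6 weeks. On the log2 ratio of mean CPM, KO over WT, Ccnd1 was -1.3 in luminal progenitors of 9 weeks and 1.85 in luminal cells of 6 weeks. The latter was 2.29 without KO luminal 2, the library that stands apart, which leaves only the KO animal with the lower title number. Ccnd2 was -1.12 in mature luminal cells of 9 weeks and -0.59 in basal cells of 4 weeks, but 0.65 in basal cells of 6 weeks. Cdk2 was -0.86 in basal cells of 9 weeks and 0.8 in basal cells of 6 weeks. The fits of the younger ages, with TMM scaling, gave Ccnd2 in basal cells -0.39 (SE 0.36) at 4 weeks and 0.52 (SE 1.14) at 6 weeks. At 6 weeks they gave Cdk2 in basal cells 0.66 (SE 0.6) and Ccnd1 in luminal cells 1.9 (SE 1.06). The gates differ between the ages, and age and batch cannot be told apart.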

How the results depend on the processing

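No value past the threshold changed sign under another setting (0 of 64) or without 1 library (0 of 167). Those values were chosen by passing in these same data, so that changes of sign were unlikely from the start. Values with neither an adjusted nor an unadjusted p under 0.05 changed sign in 24 of 646 and 155 of 1052 cases. The count of the 8 genes called moved as follows. With the replicate block it rose from 3 to 6 between basal and mature luminal cells, from 1 to 4 between progenitors and mature luminal cells and from 0 to 1 between PNA+ and Cd49b+ cells. The block moved no other count by over 1.5 times. With the numbers crossed between genotypes, chosen after the data were seen because WT and KO libraries of 1 number deviated in opposite ways (-0.453 to -0.172), 1 was called between genotypes in progenitors (Cdk6, adjusted p = 0.0146, against 0.696 with the libraries of a number summed). With DESeq2 it was 1 between genotypes in progenitors, 1 between genotypes in luminal cells of 6 weeks, 2 between basal and luminal cells of 6 weeks, 1 between those of the E2 experiment, and 2 in basal and 3 in luminal cells between 4 and 6 weeks. Between these ages in basal cells RLE normalization, which moved the median of all genes from 0 to -0.16, gave 2, while no filter and the compared libraries alone each gave 0. In luminal cells the compared libraries alone gave 2. Without 1 library at a time the count ranged from 0 to 1 between genotypes in progenitors, from 3 to 6 between basal cells and progenitors and from 0 to 1 between ages in basal cells. Cdk4 between progenitors and mature luminal cells reversed from -0.29 to 0.18 without WT mature luminal 1 (range -0.53 to 0.18 without 1 library). The cause of these changes was not tested. With 1 or 2 libraries in many groups, small differences were not detectable.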
